A study of Mus musculus with 22 samples.

Results

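The collagen chain genes are the genes that encode the alpha chains from which every collagen molecule is wound. They were taken here as all genes of the array whose single annotated symbol has the form of Col, a type number, a and a chain number. The rule found 44 genes among the 19938 genes measured. Of these, 11 encode chains of fibrillar collagens, 6 encode the chains of type IV collagen of basement membranes, 9 encode FACIT collagens, which sit on the surface of fibrils, and 18 encode other collagens. The last class holds 6 chains of type VI collagen, 4 genes of network and anchoring collagens, 2 multiplexins, 4 transmembrane collagens and 2 remaining genes. The rule reads only the symbol.

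RNA came from RIP1-TAG2 (RT2) mice, in which the insulin promoter drives the tumor antigens of a virus in pancreatic beta cells, so that pancreatic neuroendocrine tumors arise in stages. The labels gave 3 samples of normal islets, 3 of hyperplastic islets, 3 of angiogenic islets, 5 islet tumors, 5 met-like primaries and 3 liver metastases, each on 1 Affymetrix Mouse Gene array. Every sample carries the RIP1-TAG2 genotype in its label, the normal islets included, so no group is a wild-type control, and no treatment or age is given. The way tumors were assigned to the met-like primaries and the animals behind the samples are not stated in the labels, so p-values measure only the spread between samples, which may be technical. Samples are named by their titles. The 3 samples of each islet group share the same codes (NormalI-93, Normal2006 and Normal2007, and likewise for the others), and tumors have numbers with the prefix I, II or III. Values of a group are listed in this order, islets as the codes stand here and tumors by prefix and number as I-9811, II-649, II-6415, III-8017 and III-8024, met-like primaries as I-9812, II-648, II-6413, III-8016 and III-8023, and liver metastases as I-9820, I-9821 and I-9822. All 3 liver metastases carry the prefix I.

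Collagens are the main proteins of the extracellular matrix. In fibrillar types such as I, III and V, long triple helices pack side by side into fibrils that give tissue its strength, and fibroblasts and stellate cells are their chief source in pancreas and liver. Type IV forms the sheet-like network of basement membranes, which in islets is laid down mainly by the cells of blood vessels. Type VI forms beaded filaments near cells, FACIT types link fibrils to their surroundings, and the multiplexins XV and XVIII sit where basement membrane meets stroma. New chains are hydroxylated, folded and trimmed before lysyl oxidases cross-link them, and cells sense the result through integrins and discoidin domain receptors.

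The values are the authors' log2 intensities, on which a difference of 1 is a 2-fold change. Array medians lay between 7.083 and 7.22. The tissue labels were set against defining markers. The beta cell marker Ins2 averaged between 10.17 and 11.18 in the 6 groups. The mean of the whole beta cell marker list varied more. It was 11.6 in normal islets, 10.7 in islet tumors, 8.9 in met-like primaries and 9.4 in liver metastases. The hepatocyte marker Alb stood at 13.04 ± 0.14 in liver metastases (SD, n = 3). Alb was also high in some samples with no liver label, at 9.39 ± 1.61 in met-like primaries (n = 5) and 10.38 ± 2.06 in angiogenic islets (n = 3), against 7.06 ± 0.92 in islet tumors (n = 5). Acinar list means were 9.40 to 10.27 in liver metastases, 10.14 to 12.21 in met-like primaries and 11.38 to 11.79 in islet tumors, and in normal islets Normal2007 stood apart at 8.87, against 11.47 and 12.02 in the others. Normal2006 stood apart in stroma, with a fibroblast marker mean of 7.15 against 7.60 and 7.61 in the other normal islets. In these bulk samples, fewer cells of a type and less RNA per cell cannot be told apart.

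A gene was called when limma's adjusted p (Benjamini-Hochberg over 19938 genes) was below 0.05. Of the 44 collagen genes, 29 were called in at least 1 of 7 comparisons. Single comparisons called 2.53% to 36.6% of all genes. The share of all genes called in at least 1 comparison was not counted, so the 29 have no background beside them. The 15 never called were the cartilage or cornea genes Col2a1 and Col9a1, the fibrillar Col24a1, the type IV chains Col4a4 and Col4a6, the FACIT genes Col19a1, Col20a1 and Col22a1, the type VI chains Col6a4 and Col6a5, the anchoring fibril gene Col7a1, the transmembrane Col17a1, Col23a1 and Col25a1, and Col26a1. Of the 29, most had their highest group mean in angiogenic islets. Some of the comparisons that chose them use the angiogenic arrays, so this is not separate evidence.

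**Figure D1:**
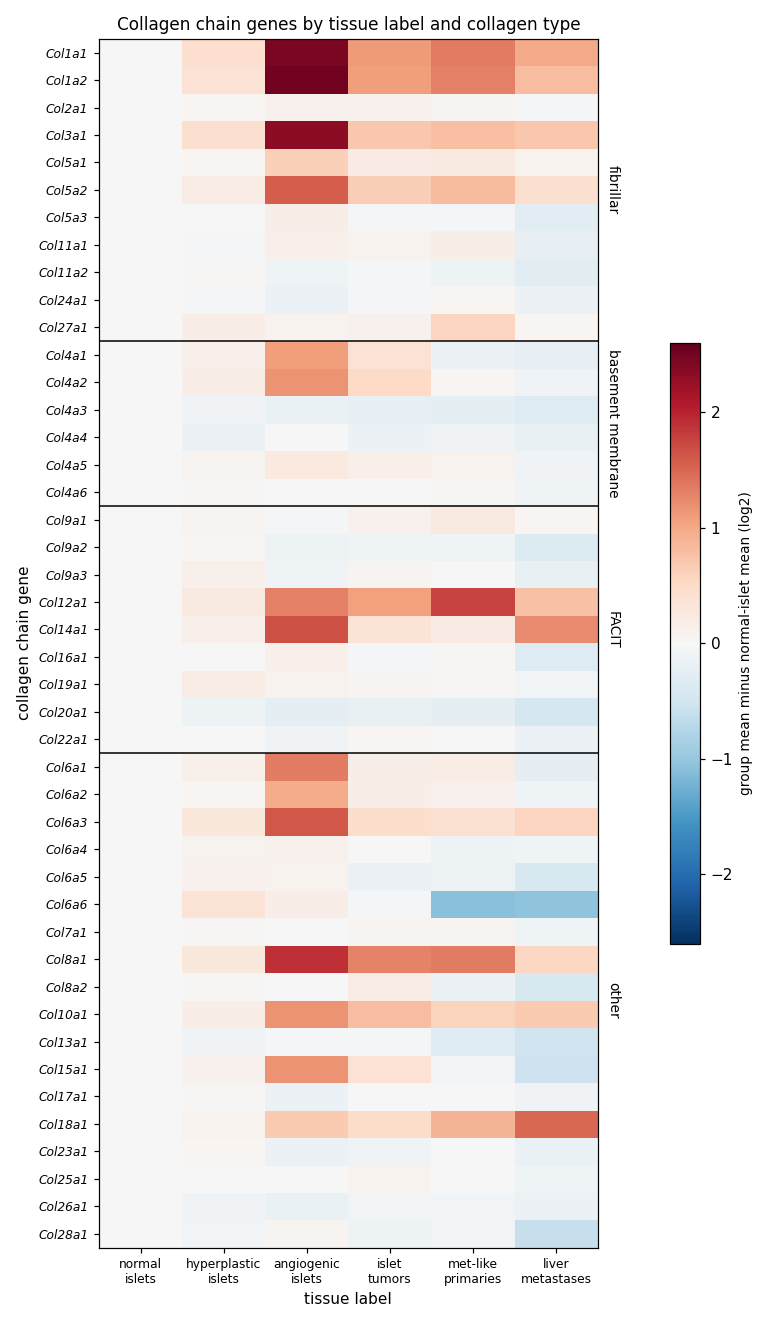
Group mean minus normal-islet mean (log2, colour) of each of the 44 collagen chain genes (down the page, by collagen type) in the 6 tissue labels (across). Among the reddest cells in the column of angiogenic islets are Col1a1, Col1a2, Col3a1, Col5a2, Col4a1, Col4a2, Col6a1, Col6a2, Col6a3, Col8a1, Col15a1, Col14a1, Col12a1 and Col10a1. Other type IV, VI and VIII chains are pale there. Col6a6 is blue in met-like primaries and liver metastases, and Col18a1 is darkest in liver metastases.

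Between hyperplastic and normal islets, no collagen gene was called with limma, while 8.64% of all genes were called, 4.46% higher and 4.17% lower. Of the 44 genes, 1 (Col19a1) had an unadjusted p below 0.05. The median difference of the 44 was 0.06 log2 and that of all genes -0.01. Col1a1, an alpha chain of type I collagen, stood at 9.40, 9.43 and 9.50 in hyperplastic islets, against 9.54, 8.30 and 9.20 in normal islets. Only Normal2006 was clearly lower, and the fitted difference of 0.43 had a 95% interval of -0.09 to 0.95. The multiplexin gene Col18a1 stood at 7.21, 7.65 and 7.60 in hyperplastic islets and 7.40, 7.25 and 7.55 in normal islets, and these ranges overlapped. The other main matrix chains repeated this shape. In normal islets Col3a1 stood at 9.43, 8.07 and 8.95, Col5a1 at 7.70, 7.42 and 7.55, and Col5a2 at 7.10, 6.73 and 7.11. Col4a1 stood at 8.86, 8.51 and 8.98 in normal islets, Col4a2 at 8.71, 8.40 and 8.81, and Col15a1 at 8.20, 7.76 and 8.29. The type VI chains stood at 8.46, 7.94 and 8.27 (Col6a1), 8.08, 7.65 and 7.97 (Col6a2) and 7.82, 7.27 and 7.69 (Col6a3) in normal islets. Normal2006 was the lowest normal sample for each of these genes. Among 30 measured genes of collagen processing, Plod2, a lysyl hydroxylase, rose by 1.19 ± 0.28 log2 (SE, adjusted p = 0.00698) and Pcolce2, an enhancer of procollagen cleavage, by 1.08 ± 0.14 (adjusted p = 2.62e-05). Of 9 measured collagen receptors, Ddr1, a discoidin domain receptor, fell by 0.40 ± 0.10 (adjusted p = 0.0153).

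Angiogenic islets had more transcript of many matrix collagens than hyperplastic islets. Of the 44 genes, 14 rose and none fell. That is 31.8% called higher, against 2.29% of all genes, of which 2.53% were called in either direction and 0.246% lower. By type, 5 of 11 fibrillar genes, 2 of 6 type IV genes, 2 of 9 FACIT genes and 5 of 18 others rose. All 14 had groups that did not overlap and were higher in each of the 3 codes shared by the groups. The same arrays gave the calls, so this adds no separate support. Of all 44 genes, 17 had every angiogenic value above every hyperplastic one. The share without overlap over all genes was not counted. The median difference was 0.20 for fibrillar, 0.17 for type IV, -0.09 for FACIT and 0.04 for the other genes, against -0.04 for all genes, so within each type a few chains rose while most lay near 0.

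The largest rises were in the fibrillar chains of types I and III. Col1a2, the second alpha chain of type I, stood at 11.34, 11.77 and 11.46 in angiogenic islets, against 9.44, 9.30 and 9.47 in hyperplastic islets. That is a difference of 2.12 ± 0.28 log2 (4.36-fold, adjusted p = 0.000145). Col1a1 stood at 11.30, 11.66 and 11.43 in angiogenic islets, against the hyperplastic values above, a difference of 2.02 ± 0.25 (adjusted p = 8.5e-05). Col3a1, whose product forms mixed fibrils with type I, stood at 11.04, 11.27 and 11.10 in angiogenic islets and 9.20, 9.08 and 9.40 in hyperplastic islets. It rose by 1.91 ± 0.26 (3.76-fold, adjusted p = 0.00019). All 3 genes were clearly higher on every angiogenic array than on any hyperplastic one.

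The type V chains help to start type I fibrils. Col5a2 stood at 8.43, 8.81 and 8.43 in angiogenic islets, against 7.04, 7.14 and 7.31 in hyperplastic islets, and rose by 1.39 ± 0.17 (adjusted p = 8.5e-05). Its partner Col5a1 stood at 8.10, 8.28 and 8.16 in angiogenic islets, against 7.44, 7.72 and 7.70 in hyperplastic islets, and rose by 0.56 ± 0.10 (adjusted p = 0.00216). The smaller rise of Col5a1 still left a gap between the groups. The other 6 fibrillar genes were not called, with Col27a1, a fibrillar gene best known from cartilage, at -0.09 (95% interval -0.35 to 0.16).

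In type IV collagen, the common vessel chains rose and the other chains did not pass the test. Col4a1 stood at 9.83, 9.92 and 9.88 in angiogenic islets, against 8.90, 8.85 and 8.998 in hyperplastic islets. Col4a2, which pairs with Col4a1 in the same molecule, stood at 9.74, 9.86 and 9.81 in angiogenic islets, against 8.82, 8.67 and 8.97 in hyperplastic islets. Their differences were 0.96 ± 0.11 and 0.98 ± 0.11 (both with adjusted p = 7.27e-05). Among Col4a3, Col4a4, Col4a5 and Col4a6, the chains of kidney, ear and skin basement membranes, none was called, and Col4a5 had a difference of 0.18 (95% interval 0.01 to 0.36).

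Among the FACIT genes, Col14a1, which coats type I fibrils, rose by 1.53 ± 0.21 (adjusted p = 0.000244) and the related Col12a1 by 1.08 ± 0.22 (adjusted p = 0.00729). Without Angiogenic2006 the Col12a1 difference was 0.96 (adjusted p = 0.0576). In type VI collagen, whose molecule joins the chains of Col6a1, Col6a2 and Col6a3, all 3 rose and Col6a4, Col6a5 and Col6a6 were not called. Col6a1 stood at 9.53, 9.62 and 9.51 in angiogenic islets, against 8.25, 8.29 and 8.53 in hyperplastic islets (1.20 ± 0.11, adjusted p = 1.07e-05). Col6a2 stood at 8.84, 8.86 and 8.90 in angiogenic islets, against 7.94, 7.84 and 8.10 in hyperplastic islets (0.91 ± 0.11, adjusted p = 7.94e-05). Col6a3 stood at 9.09, 9.30 and 9.26 in angiogenic islets, against 7.88, 7.76 and 7.95 in hyperplastic islets (1.35 ± 0.15, adjusted p = 6.67e-05). For each of these chains the angiogenic arrays lay close together and clear of the hyperplastic ones.

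Of the network collagens, Col8a1, a chain of the type VIII collagen of vessel walls and cornea, rose by 1.62 ± 0.20 (3.08-fold, adjusted p = 8.26e-05). Its partner chain Col8a2 was at -0.03 (95% interval -0.27 to 0.22). The multiplexin gene Col15a1 stood at 9.23, 9.32 and 9.23 in angiogenic islets, against 8.12, 8.17 and 8.31 in hyperplastic islets, and rose by 1.06 ± 0.14 (adjusted p = 0.000134). Col18a1, the source of the vessel inhibitor endostatin, stood at 7.98, 8.24 and 8.03 in angiogenic islets, with every value above those of hyperplastic islets. Its difference of 0.60 ± 0.26 was not called (adjusted p = 0.3). Col10a1, known from growth-plate cartilage, stood at 7.73, 8.17 and 7.06 in angiogenic islets, against 6.44, 6.72 and 6.85 in hyperplastic islets, and its 0.98 ± 0.30 was not called either (adjusted p = 0.104).

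The sequences just before the start sites of 4 of these risers are shown, 1 each of types I, III, VI and VIII, since their genes lie apart from one another on different chromosomes. Each is the 250 bases upstream of the start, from RefSeq on GRCm38.p6, and capitals mark matches on either strand to 3 short motifs. The first motif is CCAAT, known as a site of the factor NF-Y. The second is TATAAA, the usual form of the TATA box near some start sites. The last is GGGCGG, known as the core of a site for factors such as Sp1. No match overlaps another. Promoter entries were matched for 35 of the 44 genes. The Col1a2 window is chr6:4505368-4505617 (plus strand), that of Col3a1 is chr1:45311288-45311537 (plus strand), that of Col6a1 is chr10:76726045-76726294 (minus strand) and that of Col8a1 is chr16:57754738-57754987 (minus strand).
Col1a2: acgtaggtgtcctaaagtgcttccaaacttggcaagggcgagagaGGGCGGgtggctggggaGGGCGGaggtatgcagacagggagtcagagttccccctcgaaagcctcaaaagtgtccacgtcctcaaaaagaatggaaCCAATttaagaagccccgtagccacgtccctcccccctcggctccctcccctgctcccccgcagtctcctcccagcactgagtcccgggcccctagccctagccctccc
Col3a1: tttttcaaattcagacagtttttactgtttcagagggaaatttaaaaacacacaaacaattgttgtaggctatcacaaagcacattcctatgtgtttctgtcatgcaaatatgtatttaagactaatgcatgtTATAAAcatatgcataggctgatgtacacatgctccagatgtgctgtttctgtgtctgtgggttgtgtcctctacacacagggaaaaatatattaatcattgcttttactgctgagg
Col6a1: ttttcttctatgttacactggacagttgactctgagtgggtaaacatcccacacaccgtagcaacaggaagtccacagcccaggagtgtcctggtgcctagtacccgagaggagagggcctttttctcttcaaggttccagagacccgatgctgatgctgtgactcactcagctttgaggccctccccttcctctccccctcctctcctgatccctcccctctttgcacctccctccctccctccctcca
Col8a1: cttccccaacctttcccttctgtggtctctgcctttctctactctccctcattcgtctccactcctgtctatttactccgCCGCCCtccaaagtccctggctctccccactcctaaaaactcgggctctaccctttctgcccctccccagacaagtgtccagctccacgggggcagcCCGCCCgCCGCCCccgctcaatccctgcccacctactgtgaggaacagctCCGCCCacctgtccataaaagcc
The Col1a2 window held CCAAT, whose first base lies 109 bases before the start, and 2 GGGCGG matches. The Col3a1 window held TATAAA 117 bases before the start. In the Col8a1 window 4 GGGCGG matches lay on the opposite strand, and the letters searched were not in the Col6a1 window. In windows of the same length, CCAAT was in 12 of the 35 collagen promoters and in 34.5% of 27025 promoters, TATAAA in 5 of 35 and in 13%, and GGGCGG in 21 of 35 and in 32.9%. A match is a run of letters and says nothing of binding.

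Some genes that process and sense collagen rose in angiogenic islets too. Of the 30 processing genes, 5 rose and none fell, with a median of 0.17. Lox, which cross-links fibrils, rose by 1.72 ± 0.25 (3.29-fold, adjusted p = 0.000333), its relative Loxl1 by 1.09 ± 0.19 (adjusted p = 0.00167), Pcolce, which enhances procollagen cleavage, by 0.90 ± 0.16 (adjusted p = 0.00221) and Serpinh1, the collagen chaperone, by 0.73 ± 0.13 (adjusted p = 0.00228). Among the 9 receptors, Itga1, the alpha subunit of a collagen-binding integrin, rose by 1.23 ± 0.18 (adjusted p = 0.000393) and Mrc2, an uptake receptor for collagen, by 0.87 ± 0.12 (adjusted p = 0.000244). Markers of several other cell types rose too. In the fibroblast list 8 of 12 genes rose, with array means of 8.33 to 8.65 in angiogenic islets and 7.49 to 7.50 in hyperplastic islets. In the pericyte list 6 of 11 rose, with 8.81 to 9.14 in angiogenic islets and 7.85 to 8.34 in hyperplastic islets. In the endothelial list 6 of 12 rose, with 9.06 to 9.46 in angiogenic islets and 8.49 to 8.59 in hyperplastic islets. In the macrophage list 5 of 8 rose. Hepatocyte marker means were 6.88 in AngiogenicI-93, against 8.10 in Angiogenic2006 and 8.79 in Angiogenic2007. The part of the cell markers in the collagen rises was not tested.

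**Figure D2:**
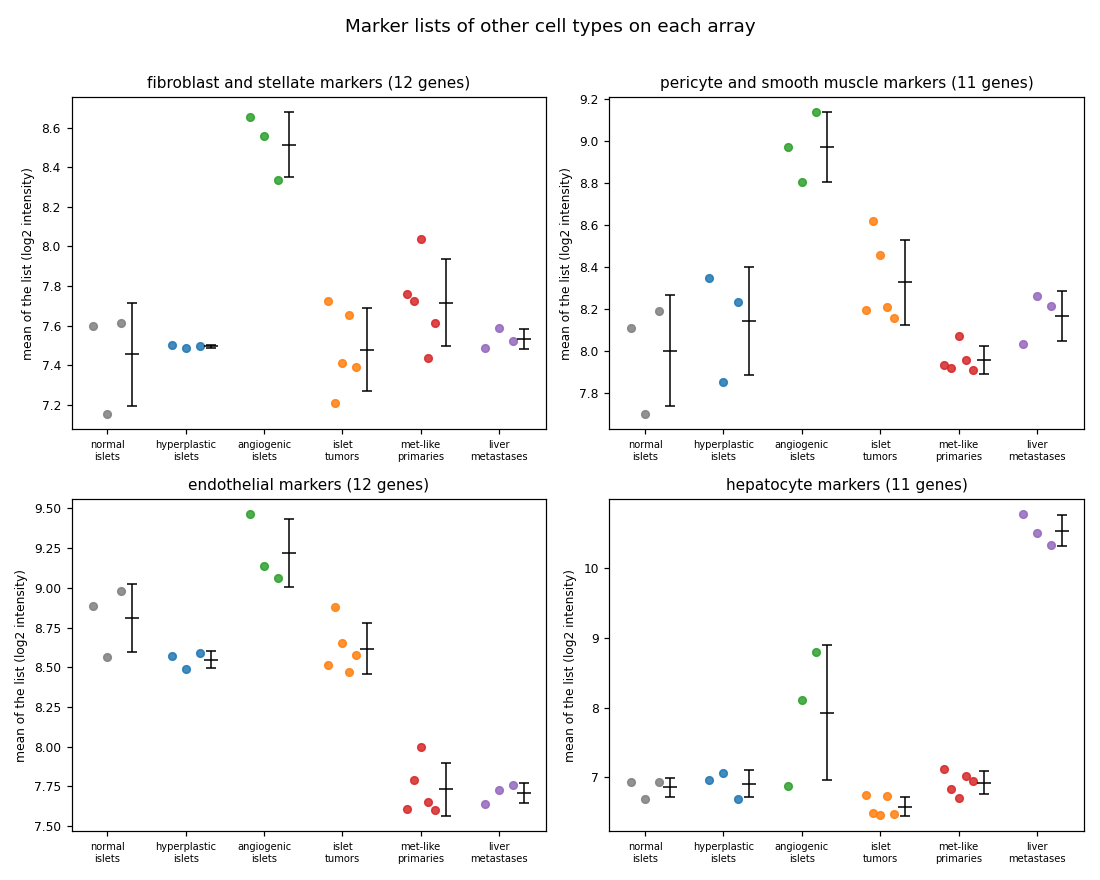
Mean log2 intensity of 4 marker lists on each array (points), with the group mean and SD (bars), for the 6 tissue labels. Fibroblast, pericyte and endothelial markers are highest in angiogenic islets, endothelial markers average 7.73 in met-like primaries, and hepatocyte markers exceed 10 in liver metastases.

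Islet tumors carried less of the same kinds of collagen than angiogenic islets. Both comparisons use the angiogenic arrays, so their values are given side by side and not as separate evidence. In islet tumors 13 of the 44 genes fell and none rose, or 29.5%, against 6.45% of all genes called lower, 3.09% higher and 9.54% in either direction. The falls were in 5 fibrillar, 2 type IV, 1 FACIT and 5 other genes. The type medians were -0.22 for fibrillar, -0.14 for type IV, 0.03 for FACIT and -0.20 for the other genes, against 0.05 for all genes. With the title code as a block the medians were -0.002398, -0.02202, 0.1763 and -0.006849 in the same order of types.

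Col3a1 had the largest fall. It stood at 9.27, 9.25, 9.63, 9.83 and 9.64 in islet tumors, all below the lowest angiogenic value of 11.04, and fell by 1.62 ± 0.23 (adjusted p = 0.00016). Col1a2 stood at 9.85, 9.74, 10.36, 10.49 and 10.15 in islet tumors and fell by 1.41 ± 0.25 (adjusted p = 0.00124). Col1a1 stood at 9.78, 9.73, 10.40, 10.43 and 10.21 in islet tumors and fell by 1.35 ± 0.23 (adjusted p = 0.000638). In both type I genes the tumors I-9811 and II-649 were the lowest, and no tumor reached an angiogenic array. Col5a2 stood at 7.59, 7.32, 7.72, 7.89 and 7.53 in islet tumors and fell by 0.94 ± 0.15 (adjusted p = 0.000554). Col5a1 stood at 7.81, 7.65, 7.89, 7.77 and 7.69 in islet tumors and fell by 0.42 ± 0.09 (adjusted p = 0.00481). With the title code as a block Col5a1 was no longer called (adjusted p = 0.0987).

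The type VI chains fell to ranges that overlapped those of hyperplastic islets. Col6a1 stood at 8.31, 8.23, 8.52, 8.40 and 8.40 in islet tumors and fell by 1.18 ± 0.10 (adjusted p = 2.83e-07). Col6a3 stood at 7.91, 7.92, 8.23, 8.17 and 8.04 and fell by 1.16 ± 0.13 (adjusted p = 1.18e-05). Col6a2 stood at 7.997, 7.96, 8.18, 8.04 and 8.12 and fell by 0.81 ± 0.10 (adjusted p = 2.2e-05). The tumors differed little among themselves in these chains. Col4a1 stood at 8.91, 9.22, 9.33, 9.15 and 9.16 in islet tumors and fell by 0.72 ± 0.10 (adjusted p = 0.000113), and Col4a2 stood at 8.93, 9.22, 9.38, 9.13 and 9.16 and fell by 0.64 ± 0.10 (adjusted p = 0.000348). Col15a1 stood at 8.12, 8.60, 8.65, 8.45 and 8.51 and fell by 0.79 ± 0.12 (adjusted p = 0.000358). In these vessel-associated chains I-9811 was the lowest tumor.

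The FACIT genes parted here. Col14a1 fell by 1.29 ± 0.19 (adjusted p = 0.000218), while Col12a1 was at -0.24 (95% interval -0.65 to 0.18). Col8a1 stood at 7.88, 8.07, 8.56, 8.52 and 7.98 in islet tumors, against 8.78, 9.14 and 8.54 in angiogenic islets, and these ranges overlapped. Its fall of 0.62 ± 0.18 (adjusted p = 0.0315) was not called with the title code as a block, where the fall was larger (-0.77, adjusted p = 0.0554), in a fit of the compared arrays alone (adjusted p = 0.102) and without any 1 of 5 arrays, with adjusted p of 0.0615 to 0.175. Col18a1 stood at 7.88, 7.84, 7.81, 8.10 and 7.74 in islet tumors and was not called (-0.21 ± 0.23, and 0.35 with the block). Of the processing genes 7 of 30 fell and none rose, among them Serpinh1 by 0.79 ± 0.12 (adjusted p = 0.000201) and Pcolce by 0.89 ± 0.14 (adjusted p = 0.000468). Of the receptors 3 of 9 fell, namely Itga1 by 0.90, Ddr2, another discoidin domain receptor, by 0.89 and Mrc2 by 0.46. Fibroblast markers fell in 8 of 12 genes and endothelial markers in 9 of 12, with fibroblast array means of 7.21 to 7.72 and endothelial array means of 8.47 to 8.88 in islet tumors. In the pericyte list 6 of 11 fell. Falls were also called in 8 of 11 hepatocyte, 6 of 8 lymphocyte and 5 of 6 other endocrine markers, with medians of -1.22, -1.47 and -2.49. Their part in the collagen falls was not tested.

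**Figure D3:**
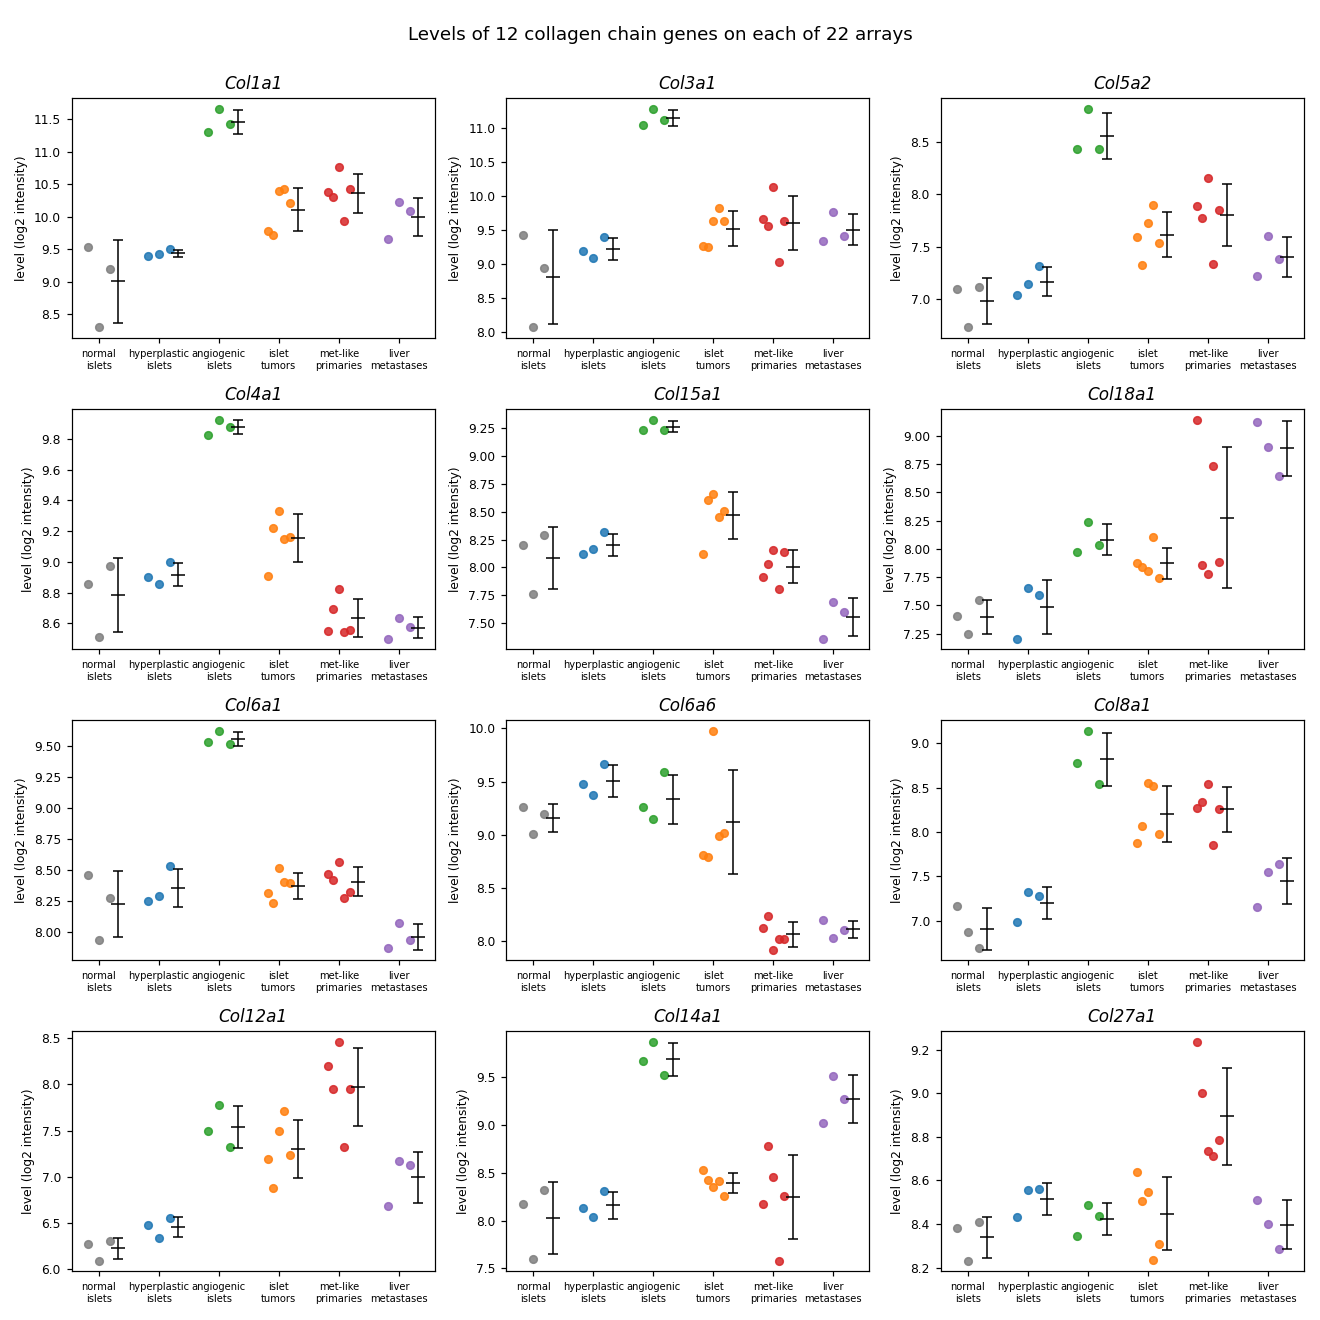
Log2 intensity of 12 collagen chain genes on each of the 22 arrays (points), with the group mean and SD (bars), by tissue label. Col1a1, Col3a1 and Col6a1 peak in angiogenic islets, and Col12a1 and Col27a1 are highest in met-like primaries. Col6a6 is low in met-like primaries and liver metastases. Col18a1 splits the met-like primaries into 3 values of 7.77 to 7.88 and values of 8.74 and 9.14.

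Set against normal islets, islet tumors still carried more Col1a1, Col1a2 and Col8a1 transcript. In islet tumors 11 of the 44 genes were higher and 1 was lower, against 13.0% higher, 16.1% lower and 29.0% in either direction over all genes. The 11 were 25% of the collagen genes, namely 4 fibrillar, 2 type IV, 1 FACIT and 4 other genes. Col8a1 stood at 7.88, 8.07, 8.56, 8.52 and 7.98 in islet tumors, against 7.16, 6.87 and 6.70 in normal islets (1.29 ± 0.18, 2.45-fold, adjusted p = 9.01e-06). The groups did not overlap. Col1a1 differed by 1.10 ± 0.23 (adjusted p = 0.000715) and Col1a2, at 9.66, 8.13 and 9.29 in normal islets, by 1.09 ± 0.25 (adjusted p = 0.00203). Col12a1 differed by 1.08 ± 0.20 (adjusted p = 0.000242) and did not overlap, with 6.87 to 7.71 in islet tumors and 6.09 to 6.31 in normal islets. The other higher genes were Col10a1 (0.80), Col3a1 (0.71), Col5a2 (0.63), Col4a2 (0.52), Col6a3 (0.46), Col15a1 (0.38) and Col4a1 (0.37). Col4a3 stood at 6.94, 6.78, 6.96, 6.77 and 6.76 in islet tumors, against 7.03, 7.03 and 7.13 in normal islets, a fall of 0.22 ± 0.08 (adjusted p = 0.0379).

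Several of these calls rested on few arrays. Without Normal2006 7 genes were called, all higher, and with the title code as a block 6 were. The block compares tumors with islets only through arrays of the prefix I, and under it the calls of Col1a1 (adjusted p = 0.0928), Col1a2 (0.125), Col3a1 (0.373), Col5a2 (0.0502), Col4a1 (0.22), Col6a3 (0.39), Col15a1 (0.496), Col10a1 (0.244) and Col4a3 (0.757) were lost, while Col18a1 was called (1.03, adjusted p = 0.0216). Within the prefix I, which holds 1 tumor and 1 normal sample, Col8a1 differed by 0.72, Col12a1 by 0.92 and Col1a1 by 0.25, while Col3a1 (-0.16) and Col15a1 (-0.08) went the other way. Without Normal2006 the difference of Col3a1 was 0.33 (adjusted p = 0.306), that of Col4a1 0.24 (0.0925), that of Col6a3 0.30 (0.138) and that of Col15a1 0.22 (0.236). Col4a3 was not called without any 1 of the 3 normal samples or any 1 of 3 tumors (-0.24 to -0.19, adjusted p of 0.0618 to 0.147). Col10a1 was not called without NormalI-93, Normal2007 or any 1 of 3 tumors (0.70 to 0.81, adjusted p of 0.0604 to 0.114). Of the processing genes 6 of 30 rose and 10 fell in islet tumors. Pcolce2 rose by 0.99 ± 0.13 (adjusted p = 3.45e-06) and Plod2 by 1.52 ± 0.25 (adjusted p = 6.14e-05), while Mia3, which helps to export procollagen, fell by 0.71 ± 0.14 (adjusted p = 0.000603). Among the receptors Mrc2 and the inhibitory Lair1 each rose by 0.46 and Ddr1 fell by 0.44. In the fibroblast list 2 of 12 genes rose and 2 fell. Pericyte markers rose in 4 of 11 genes and macrophage markers in 6 of 8, while 5 of 10 beta cell and 6 of 6 other endocrine markers fell. Their part in the collagen differences was not tested.

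Met-like primaries and islet tumors, both primary tumors, showed no called difference in type I and III collagen. Col4a1, Col4a2, Col15a1, Col8a2 and Col6a6 were among the falls in met-like primaries. Of the 44 genes 2 rose and 6 fell, or 4.55% and 13.6%, against 12.3% and 14.2% of all genes and 26.5% in either direction. The count of falls is thus near that of genes at large, and that of rises below it. By type, 1 fibrillar gene and 1 FACIT gene rose, and 2 type IV genes and 4 others fell. All 8 calls held when any 1 array was left out. All 8 had the same direction within each of the prefixes I, II and III, except Col8a2, which had it in 2 of 3.

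Col6a6, a type VI chain that can take the place of the Col6a3 chain, had the largest fall. It stood at 8.12, 8.24, 7.92, 8.02 and 8.02 in met-like primaries, against 8.81, 8.79, 9.97, 8.99 and 9.02 in islet tumors. The groups did not overlap, and the fall was 1.05 ± 0.16 log2 (adjusted p = 2.78e-05). The gene has a second probe set, with a lower mean level, which stood at 6.55 ± 0.16 in met-like primaries and 8.51 ± 0.60 in islet tumors (SD, n = 5 each). On that probe set the difference was -1.96. The chains that share a molecule with it or with each other, Col6a1 (0.03, 95% interval -0.15 to 0.22), Col6a2 (-0.04, -0.22 to 0.13) and Col6a3 (-0.06, -0.30 to 0.18), were not called. In met-like primaries they stood at 8.46, 8.42, 8.56, 8.27 and 8.32 (Col6a1), 8.04, 8.15, 8.12, 7.76 and 8.03 (Col6a2) and 7.74, 8.22, 8.23, 7.78 and 8.01 (Col6a3), and each overlapped the islet tumors.

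The type IV chains Col4a1 and Col4a2 fell together. Col4a1 stood at 8.55, 8.69, 8.82, 8.54 and 8.56 in met-like primaries, all below the lowest islet tumor at 8.91 (fall of 0.52 ± 0.09, adjusted p = 8.58e-05). Col4a2 stood at 8.63, 8.70, 8.88, 8.65 and 8.64, against a lowest islet tumor of 8.93 (fall of 0.46 ± 0.09, adjusted p = 0.000286). Neither gene overlapped between the groups. Col15a1 stood at 7.91, 8.03, 8.16, 7.81 and 8.13 in met-like primaries and fell by 0.46 ± 0.11 (adjusted p = 0.0026), overlapping the islet tumor I-9811 at 8.12. Col8a2 fell by 0.34 ± 0.09 (adjusted p = 0.00776) and Col13a1, a transmembrane collagen of neuromuscular junctions, by 0.30 ± 0.07 (adjusted p = 0.00119). Col8a1, the partner of Col8a2, averaged 8.25 in met-like primaries and 8.20 in islet tumors and was not called. Endothelial markers fell in 10 of 12 genes, with a mean of 7.73 in met-like primaries and 8.62 in islet tumors and no overlap of the array means, and pericyte markers in 5 of 11, with 7.91 to 8.07 in met-like primaries and 8.15 to 8.62 in islet tumors. Beta cell markers fell in 9 of 10 genes (median -1.56), with array means of 8.62 to 9.28 in met-like primaries and 10.51 to 11.01 in islet tumors, and other endocrine markers fell in 4 of 6. The part of these markers in the collagen changes was not tested.

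Col12a1 was higher in met-like primaries, at 8.20, 7.95, 8.46, 7.32 and 7.95, against 7.19, 6.87, 7.49, 7.71 and 7.24 in islet tumors (0.67 ± 0.17, adjusted p = 0.00478). III-8016 was the only met-like primary within the range of the islet tumors. Col27a1 stood at 9.23, 9.0004, 8.74, 8.71 and 8.78 in met-like primaries, against 8.64, 8.50, 8.55, 8.24 and 8.31 in islet tumors, and rose by 0.45 ± 0.10 (adjusted p = 0.00106) without overlap. The fibrillar chains of types I, III and V were not called. Col1a1, at 10.38, 10.30, 10.77, 9.93 and 10.43 in met-like primaries, differed by 0.25 (95% interval -0.15 to 0.66). Col3a1, at 9.66, 9.56, 10.13, 9.03 and 9.63, differed by 0.08 (-0.34 to 0.50). Col1a2 stood at 10.43, 10.28, 10.73, 9.82 and 10.45 (0.22, -0.23 to 0.68), Col5a1 at 7.81, 7.75, 7.85, 7.68 and 7.89, and Col5a2 at 7.88, 7.78, 8.15, 7.34 and 7.85 in met-like primaries. Among the met-like primaries II-6413 was highest and III-8016 lowest in Col1a1, Col1a2 and Col3a1. The fibroblast (7.44 to 8.04), acinar (10.14 to 12.21) and macrophage (7.54 to 8.24) marker means were also highest in II-6413 and lowest in III-8016. So were the lymphocyte (6.43 to 6.63) and other endocrine (7.38 to 7.83) means. The hepatic stellate mean ran the other way, lowest in II-6413 (7.35) and highest in III-8016 (7.64). The remaining marker lists had neither order in full. The part of these markers in the collagen spread was not tested.

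Col18a1 split the met-like primaries. It stood at 9.14 in I-9812 and 8.74 in III-8016, but at 7.85, 7.77 and 7.88 in II-648, II-6413 and III-8023, which lay among the islet tumors. The difference of 0.40 ± 0.20 was not called (adjusted p = 0.152). Hepatocyte marker means were 7.12 in I-9812 and 7.01 in III-8016, against 6.70 to 6.95 in the other met-like primaries, and 10.34 to 10.78 in liver metastases. Their part in the split was not tested.

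Of 30 processing genes, 11 rose and 5 fell in met-like primaries. Pcolce2 rose by 1.02 ± 0.11 (adjusted p = 3.21e-07), P4ha2, a prolyl hydroxylase subunit that stabilises the helix, by 1.08 ± 0.15 (adjusted p = 7.16e-06), and Fkbp14, a folding enzyme of the endoplasmic reticulum, by 0.80 ± 0.13 (adjusted p = 5.45e-05). Plod1, a lysyl hydroxylase, fell by 0.60 ± 0.09 (adjusted p = 1.38e-05). Of the receptors, the integrin subunit Itgb1 rose by 0.36 ± 0.09 (adjusted p = 0.00529) and Ddr1 fell by 0.46 ± 0.08 (adjusted p = 0.000113).

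**Figure D4:**
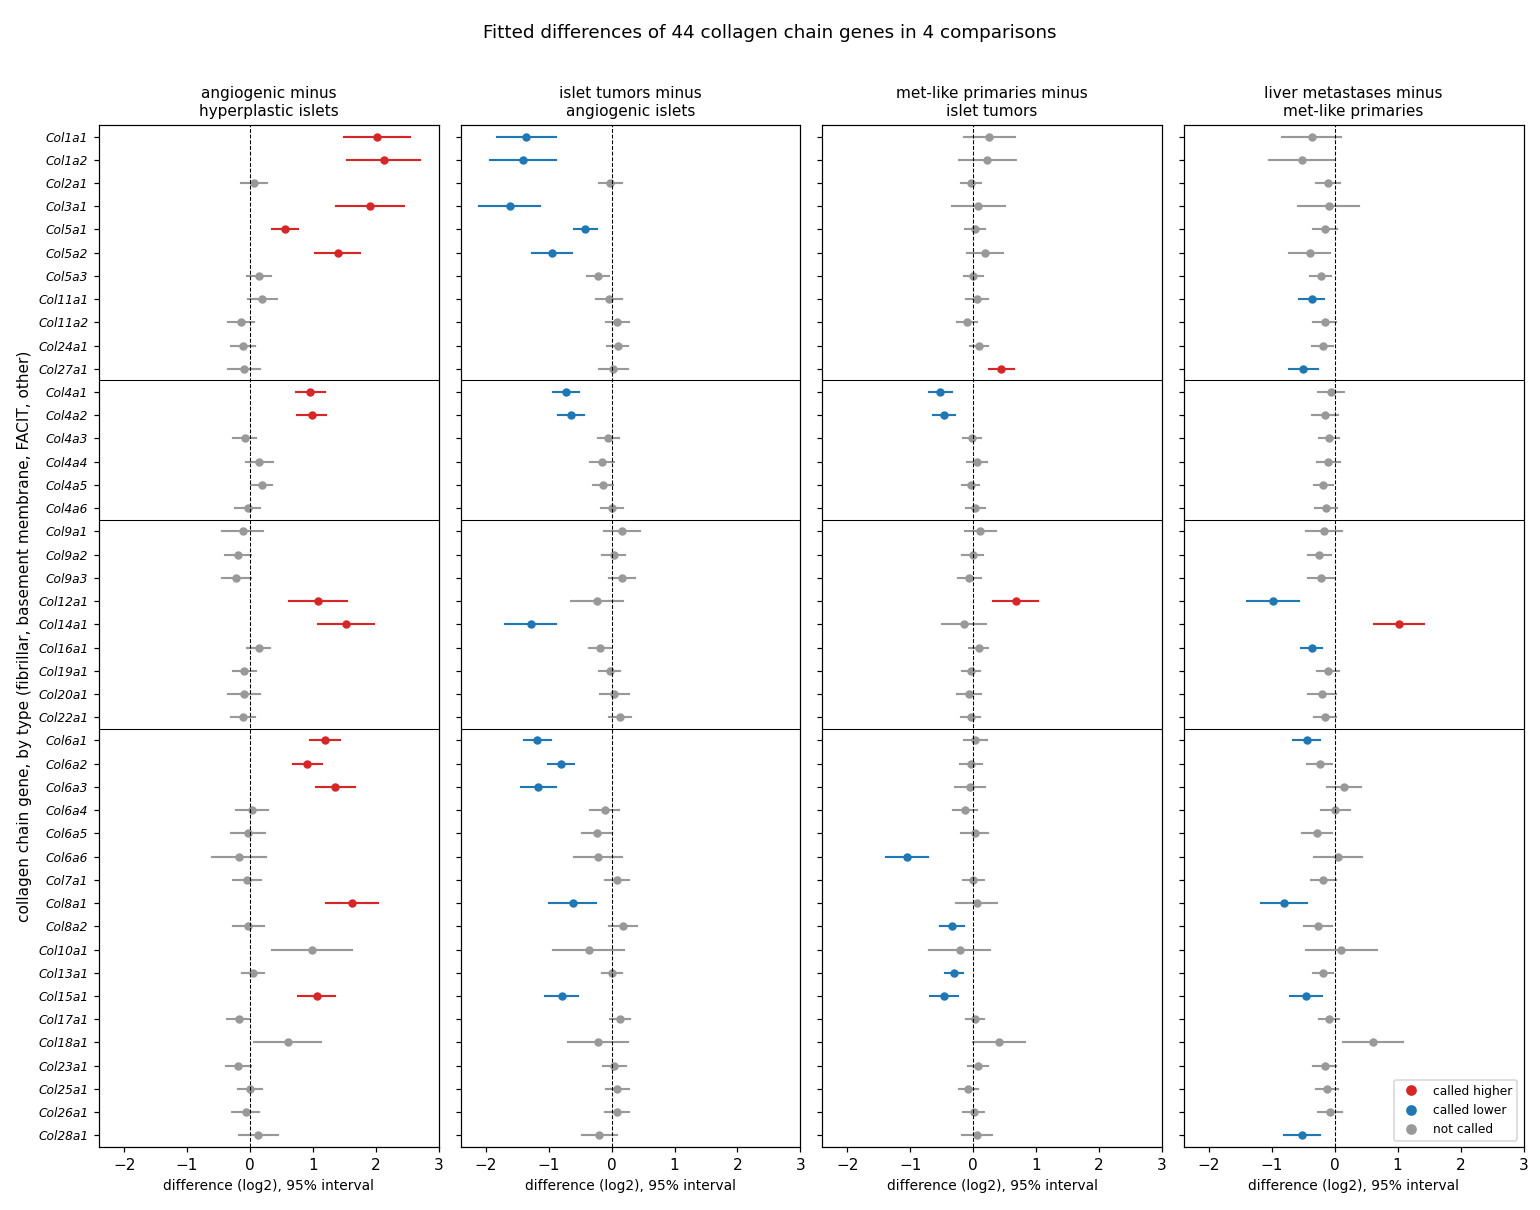
Fitted log2 difference (points) with its 95% interval (lines) for the 44 collagen chain genes in 4 comparisons between tissue labels, by collagen type. Red marks genes called higher and blue genes called lower. The panel of angiogenic against hyperplastic islets holds only rises and that of islet tumors against angiogenic islets only falls among its calls, with Col14a1 the only gene called higher in liver metastases than in met-like primaries.

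Liver metastases had less of several matrix collagens than met-like primaries, and more of Col14a1. Of the 44 genes 1 rose and 8 fell, or 2.27% and 18.2%, against 7.80% and 7.87% of all genes and 15.7% in either direction. The falls were in 2 fibrillar, no type IV, 2 FACIT and 4 other genes. The medians of the types lay between -0.23 and -0.12, below the -0.01 of all genes, and 38 of the 44 fitted values were below 0. With array weights 19 genes were called, 2 higher and 17 lower. That setting also called 5377 of all 19938 genes in place of 3126. The metastases all carry the prefix I, and 1 met-like primary, I-9812, shares it. Values within that prefix are given beside the fits of Col14a1 and Col12a1. The other called genes also fell within the prefix, with differences from -0.84 (Col27a1) to -0.36 (Col15a1).

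Col14a1 stood at 9.01, 9.51 and 9.27 in liver metastases, against 8.17, 8.78, 8.46, 7.58 and 8.25 in met-like primaries, without overlap. It rose by 1.02 ± 0.19 (2.02-fold, adjusted p = 0.000829), and by 1.09 within the prefix I. Its relative Col12a1 went the other way, at 6.68, 7.17 and 7.13 in liver metastases, below every met-like primary, and fell by 0.98 ± 0.20 (adjusted p = 0.00156). Within the prefix I that fall was 1.20. The FACIT genes thus split, and another, Col16a1, fell by 0.37 ± 0.08 (adjusted p = 0.00348).

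Col8a1 stood at 7.15, 7.54 and 7.64 in liver metastases, against 8.27, 8.34, 8.54, 7.86 and 8.26 in met-like primaries, and fell by 0.81 ± 0.18 (adjusted p = 0.00333). The groups did not overlap. With the title code as a block its call was lost (-0.66, adjusted p = 0.0672). Col28a1, a relative of type VI known from peripheral nerve, stood at 6.73, 6.67 and 6.38 in liver metastases, against 7.09, 7.62, 7.12, 6.74 and 7.001 in met-like primaries. It fell by 0.52 ± 0.14 (adjusted p = 0.011), at -0.42 without I-9822 (adjusted p = 0.093) and at -0.52 in a fit of the compared arrays alone (adjusted p = 0.0701). In this comparison none of the 6 measured Schwann cell markers was called (median -0.14), and against islet tumors 2 were lower in liver metastases. Their part in the Col28a1 fall was not tested.

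Col6a1 stood at 7.87, 8.07 and 7.94 in liver metastases, below every met-like primary, and fell by 0.45 ± 0.10 (adjusted p = 0.0046). Its partner Col6a3, at 7.98, 8.38 and 8.07 in liver metastases, differed by 0.15 (95% interval -0.13 to 0.42). Col6a2, at 7.77, 7.86 and 7.71, differed by -0.24 ± 0.10 and was not called (adjusted p = 0.106), but it was called with array weights (-0.24, adjusted p = 0.0204) and without the met-like primary III-8016 (-0.31, adjusted p = 0.0245). The 3 chains of this molecule thus gave different values on the same arrays. Col15a1 stood at 7.37, 7.69 and 7.61 in liver metastases and fell by 0.45 ± 0.12 (adjusted p = 0.0157), but was not called without I-9820 (-0.36, adjusted p = 0.111) or with the block (-0.23, adjusted p = 0.304). Col27a1 fell by 0.50 ± 0.11 (adjusted p = 0.00343) and Col11a1, a cartilage fibril chain, by 0.37 ± 0.10 (adjusted p = 0.0119). Col11a1 was at -0.35 without I-9821 (adjusted p = 0.0578) or I-9822 (0.0563).

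The type I, III and IV chains were not called. Col1a1 stood at 9.67, 10.23 and 10.09 in liver metastases (-0.37, 95% interval -0.84 to 0.10), Col1a2 at 9.61, 10.05 and 9.82 (-0.52, -1.04 to 0.01) and Col3a1 at 9.34, 9.77 and 9.41 (-0.10, -0.58 to 0.39). Each overlapped the met-like primaries in at least 1 array. Col4a1 stood at 8.50, 8.63 and 8.58 (-0.06, -0.27 to 0.15) and Col4a2 at 8.53, 8.58 and 8.54 (-0.15, -0.36 to 0.06). The type V chains were not called either, with Col5a1 at 7.63, 7.80 and 7.50 and Col5a2 at 7.22, 7.60 and 7.38 (-0.40 ± 0.15, adjusted p = 0.0872). Col5a2 was called with array weights (-0.37, adjusted p = 0.0311) and without III-8016 (-0.52, adjusted p = 0.013). Col18a1 stood at 9.13, 8.90 and 8.64 in liver metastases. The met-like primary I-9812, which shares their prefix, stood at 9.14, above all of them. The Col18a1 difference of 0.61 ± 0.23 over all arrays was not called (adjusted p = 0.0761). It was called without the met-like primary I-9812 (0.83, adjusted p = 0.00386) or III-8016 (0.73, adjusted p = 0.0318), the 2 with the highest levels of this gene in their group.

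All 11 hepatocyte markers rose in liver metastases, with array means of 10.34 to 10.78 in liver metastases and 6.70 to 7.12 in met-like primaries, and 3 of 6 hepatic stellate markers rose. Endothelial array means were 7.64 to 7.76 in liver metastases. Acinar markers fell in 5 of 7 genes (median -1.90) and macrophage markers in 4 of 8. Fibroblast markers split, with 2 of 12 higher and 3 lower, and array means of 7.49 to 7.59 in liver metastases. The part of these markers in the levels of Col14a1, Col18a1 and the falling genes was not tested. Of the processing genes 1 of 30 rose (Pcolce2, 0.51 ± 0.13, adjusted p = 0.00854) and 5 fell, among them P3h2, a prolyl hydroxylase that acts on type IV collagen, by 1.33 ± 0.23 (adjusted p = 0.000322) and Loxl1 by 0.66 ± 0.17 (adjusted p = 0.00995). Among the receptors Itga1 rose by 0.57 ± 0.16 (adjusted p = 0.0193).

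Set against islet tumors, liver metastases had 2 collagen genes higher and 17 lower, or 4.55% and 38.6%, against 17.3% and 19.3% of all genes and 36.6% in either direction. Lower were 3 fibrillar, 3 type IV, 3 FACIT and 8 other genes. Without the metastasis I-9822 the count was 10, 2 higher and 8 lower. Col18a1 was higher in all 3 liver metastases (8.64 to 9.13) than in any islet tumor (7.74 to 8.10), by 1.02 ± 0.23 (2.03-fold, adjusted p = 0.00133). With the title code as a block it was at 0.58 (adjusted p = 0.111). Col14a1 was higher by 0.87 ± 0.19 (adjusted p = 0.00107), with 9.01 to 9.51 in liver metastases and 8.25 to 8.53 in islet tumors.

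Col6a6 was lower by 1.00 ± 0.18 (adjusted p = 0.000179), with 8.20, 8.03 and 8.11 in liver metastases, within the range of the met-like primaries and below every islet tumor. Col15a1 was lower by 0.91 ± 0.12 (adjusted p = 6.18e-06) and Col8a1 by 0.75 ± 0.18 (adjusted p = 0.00199). Neither overlapped between the groups, though the Col8a1 call was lost with the block (-0.60, adjusted p = 0.0563). Col4a2 (-0.62), Col8a2 (-0.60), Col4a1 (-0.58), Col13a1 (-0.49), Col28a1 (-0.46) and Col6a1 (-0.41) were lower too, of which Col28a1 was not called without I-9822. The other falls, in Col11a1, Col16a1, Col6a2, Col9a3, Col11a2, Col9a2, Col5a3 and Col4a5, lay between -0.31 and -0.22. Each of these 8 calls was lost without at least 1 array. All 11 measured hepatocyte markers were higher (median 4.11), as were 2 of 6 hepatic stellate markers. Endothelial markers were lower in 10 of 12 genes, beta cell markers in 8 of 10 and acinar markers in 7 of 7 (median -2.05). Of 11 pericyte markers 5 were lower and 2 higher, and of 8 macrophage markers 5 were lower and 1 higher. Schwann markers were lower in 2 of 6 genes, and fibroblast markers split, with 2 of 12 higher and 2 lower. The part of these markers in the collagen differences was not tested. Of the processing genes 8 of 30 rose and 11 fell. Pcolce2 rose by 1.53 ± 0.13 (adjusted p = 6.4e-09) and P4ha2 by 1.35 ± 0.17 (adjusted p = 2.01e-06), while Plod1 fell by 0.81 ± 0.10 (adjusted p = 1.67e-06). Of the receptors 1 of 9 rose (Itgb1, 0.59 ± 0.11, adjusted p = 0.000146) and 4 fell, with Ddr1 at -0.65 ± 0.09 (adjusted p = 9.16e-06).

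Chains that share a molecule differed in how closely they ran together. Over the 22 arrays Col1a1 spanned 3.36 log2 and Col1a2 3.65, while their difference on the same array spanned 0.41. Col4a1 and Col4a2, which are neighbours in the genome, spanned 1.42 and 1.46, and their difference 0.29. For these pairs the chains kept nearly the same offset in every tissue. The difference of Col6a1 and its neighbour Col6a2 spanned 0.65, that of Col6a1 and Col6a3 1.03 and that of Col5a1 and Col5a2 1.22. Col8a1 and Col8a2 stood at the other end, since Col8a1 spanned 2.44, Col8a2 0.97 and their difference 2.43. These spans describe changes between arrays, and no level of a probe set was set against that of another. Col3a1 and Col5a2, of different types, are also neighbours, as are Col6a6, Col6a5 and Col6a4 in this order, of which only Col6a6 was called in any comparison on the probe set used. Col6a5 has a second probe set with a lower mean level. It stood at 5.57 ± 0.15 in islet tumors and 6.52 ± 0.18 in angiogenic islets (a difference of -0.95, SD, n = 5 and 3), differed by 0.54 between met-like primaries and islet tumors and by -0.52 between liver metastases and met-like primaries, with no test. On the used probe set these differences were -0.23, 0.02 and -0.28.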

How the data were processed

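RNA of 22 samples was hybridised to Affymetrix Mouse Gene 1.0 ST arrays, 1 each. The deposited values are log2 intensities per probe set, which the authors made from the scanner files with aroma.affymetrix, per the series' design text. The steps within that package are not stated, so background and normalization choices can affect small differences. Precision is limited by how many arrays a group has, since read depth does not apply.

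Of 35511 probe sets, 21789 had 1 symbol in GEO's annotation, 1621 had several and were not used, and 12101 were not listed. For each of 19938 genes the probe set of the highest mean was kept. limma 3.58.1 in R 4.3.3 fitted 1 mean per group on all 22 arrays, with eBayes and Benjamini-Hochberg adjustment over all 19938 genes and 2-sided tests. Every adjusted p in the text is limma's, every value after ± beside a difference is its standard error, and intervals are 95% intervals. The procedure was tested on simulated data with independent noise and no effect of the title codes. That test therefore says nothing of samples paired by code. A probe set's level depends on its probes, so levels were compared between arrays only.

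Genes named were the 3 largest called rises and falls per comparison and 12 chains of the main matrix types, given on every array, with other members named where called or where they pair with those. From the lists of collagen processing and receptors at most 4 called genes with the smallest adjusted p were named per comparison. The members and lists were chosen with earlier results of these data known. Title codes shared by the islet groups paired the samples, since the deviations from group means correlated at 0.197 to 0.448 (normal with hyperplastic) and 0.353 to 0.479 (hyperplastic with angiogenic) for the same code, against -0.393 to -0.0583 for different codes. The fit with the code as a replicate block is an alternative. The others were quantile normalization, a fit of the compared arrays alone, a filter on low genes, median centring, the mean of all probe sets, array weights, trended and robust variance, a fold limit and leaving out each array. No 2 arrays were identical, and their highest correlation was 0.9951.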

Additional observations from a re-analysis of the deposited data

Results flagged for a closer look

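In 5 of 88 groups of 5 arrays, 1 array stood apart by Dixon's criterion, a share that is close to the 1 in 20 that chance gives. Col6a6 was at 9.97 in the islet tumor II-6415, against 8.79 to 9.02 in the other islet tumors, while the met-like primaries lay below all 5. Col6a4, which lies beyond Col6a5 in the same gene cluster, was at 7.37 in the islet tumor I-9811, against 6.87 to 6.94 in the others. Col6a2 was at 7.76 in the met-like primary III-8016, against 8.03 to 8.15 in the others. This array was also the lowest met-like primary in Col1a1, Col3a1 and the fibroblast, acinar, macrophage, lymphocyte and other endocrine marker means. It was the highest in the hepatic stellate and beta cell marker means. Col11a2, a cartilage fibril chain, was at 7.49 in the met-like primary II-6413, against 7.73 to 7.77 in the others. Col7a1 was at 7.93 in the met-like primary I-9812, against 7.81 to 7.84 in the others.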

How the results depend on the processing

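No called value of a named gene changed sign under any alternative run, while 16 uncalled ones did at least once. Of 28 type medians 6 near 0 changed sign, each without 1 array, namely basement membrane in hyperplastic against normal islets (-0.004913), other in angiogenic against hyperplastic islets (-0.02331, and -0.0124 with median centring), FACIT in islet tumors against angiogenic islets (-0.02181) and basement membrane (0.01089), FACIT (0.01225) and other (0.00861, and 0.001451 with array weights) in met-like primaries against islet tumors. Of 118 values of named genes 75 were called, of which 48 stayed called in every alternative and 27 were lost at least once, while 5 uncalled values gained a call. The replicate block lost 16 calls and gained 1, a fit of only the compared arrays lost 11 and gained 1, median centring lost 6, quantile normalization lost 5, array weights lost 2 and gained 3, and the low-level filter, the mean of probe sets and the trended variance changed none. Leaving out 1 array lost 20 calls at least once. The block changed no collagen call between hyperplastic and normal islets or between angiogenic and hyperplastic islets. In islet tumors against angiogenic islets it put the type medians at -0.002398 (fibrillar), -0.02202 (basement membrane), 0.1763 (FACIT) and -0.006849 (other). In islet tumors against normal islets it left 6 genes called, with medians of 0.3136, 0.1912, 0.2617 and 0.1825 in that order. It put the FACIT median at -0.3297 in liver metastases against met-like primaries. In liver metastases against islet tumors it gave -0.2419 for fibrillar, -0.2845 for basement membrane and -0.3381 for other genes. The cause was not tested. With a log2 limit of 1, fewer genes can pass, and 6 remained in islet tumors against angiogenic islets, 1 in met-like primaries against islet tumors, 1 in liver metastases against met-like primaries, 4 in islet tumors against normal islets and 2 in liver metastases against islet tumors. Array weights called 19 genes in liver metastases against met-like primaries. Without 1 array each, the number called was 13 to 15 in angiogenic against hyperplastic islets, 12 to 14 in islet tumors against angiogenic islets, 7 to 13 in liver metastases against met-like primaries, 7 to 12 in islet tumors against normal islets and 10 to 21 in liver metastases against islet tumors. The median of the other types lay between -0.2341 and -0.1194 in islet tumors against angiogenic islets. Over all genes, median centring put the share of calls that were higher at 37.9% in place of 51.7% in hyperplastic against normal islets, 76.6% in place of 90.3% in angiogenic against hyperplastic islets, 51.7% in place of 32.4% in islet tumors against angiogenic islets and 33.9% in place of 44.7% in islet tumors against normal islets. Calls over all genes were 930 with array weights in place of 505 in angiogenic against hyperplastic islets, 768 with only the compared arrays in place of 1903 in islet tumors against angiogenic islets, and 5377 with array weights in place of 3126 in liver metastases against met-like primaries. Signal over background was not analysed here.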
